A study of Mus musculus with 36 samples.

Results

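Mice that smelled octanal together with cis-3-hexenol were compared with mice that smelled octanal alone, to measure which genes the added alcohol gained and which it lost. Octanal is a straight-chain aldehyde with a citrus smell, and cis-3-hexenol is the leaf alcohol that smells of cut grass. The comparison took 6 of the 36 libraries of the series, chosen by their odor labels, and covered all 57010 genes listed, of which 19568 had enough counts to be tested. It held 3 mice given the 1:1 mixture and 3 mice given octanal. The 3 mice given cis-3-hexenol and the 3 given an empty paper, all from the same labelled set (the OC condition), served as references. Every mouse was a wild-type C57BL/6J male of 8 weeks that spent 4 h without odor and then 90 min with a filter paper. The paper held 10 µL of odorant, except for the no-odor mice. The single odorants were undiluted, so each odorant of the mixture had only a part of the volume it had alone, and the effect of that smaller amount cannot be told apart from an effect of the other odorant.

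Olfactory sensory neurons of the mouse nose each express a single odorant receptor gene out of a very large family, and an odor is encoded by the set of receptors it activates. When such a neuron fires, ribosomal protein S6 becomes phosphorylated (pS6), so ribosomes captured with an antibody to pS6 are enriched for the messenger RNA of active neurons, including the RNA of the receptor that responded. A receptor gene that is high in the captured RNA is therefore read as a receptor whose neurons were active, although in bulk tissue more active cells and more captured RNA per cell cannot be told apart. The names of mouse receptor genes begin with Olfr. The table listed 1407 of them, and 902 were tested.

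The octanal libraries held 18583770 to 21505980 estimated counts and the mixture libraries 21562430 to 24528010. Levels are given as CPM, the counts of a gene relative to the scaled total of its library. Markers of mature sensory neurons (Omp, Cnga2, Gnal, Adcy3, Stoml3 and Ano2) summed to 17366 to 25184 CPM with octanal and 19386 to 22643 CPM with the mixture, so the labelled tissue carried its defining markers in every library and the groups overlapped. Red blood cell markers were also present, at 4424 to 13753 CPM with octanal and 5277 to 12208 CPM with the mixture. The no-odor libraries held more of these, 46717 to 55307 CPM, and less of the mature neuron markers, 6823 to 9054 CPM. With cis-3-hexenol the red cell markers were 11613 to 17248 CPM and the neuron markers 9929 to 14362 CPM. The part of this in the comparisons with no odor was not tested. The vomeronasal list was at or near 0: 236 of its 330 genes had no count in any of the 6 libraries, and its sum was 6.05 to 11.2 CPM. Octanal replicate 2 stood somewhat apart, with correlations of 0.962 to the other octanal libraries, which correlated at 0.979 with each other, and with the lowest share of receptor counts. Without it 11 genes were called in the comparison, and 10 of the 14 described below were among them.

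Adding cis-3-hexenol to octanal raised a small group of receptor genes. In edgeR's quasi-likelihood test, 14 of 19568 genes (0.0715%) were higher with the mixture at a Benjamini-Hochberg adjusted p under 0.05, and 0 were lower. At an unadjusted p under 0.05 there were 339 higher (1.73%) and 368 lower genes (1.88%), and DESeq2 called 21 higher and 2 lower. Without the filter on low counts edgeR called 89 genes higher and 71 lower. Of the 14 genes, 13 were Olfr genes, which is 1.44% of the 902 receptor genes tested. The other gene, Gm13769, is listed by RefSeq (GRCm38.p6) as the receptor gene Olfr1565, so every called gene was a receptor gene. The rises ran from 3.40-fold to 19.2-fold, with a median of 4.84-fold. In all 14 genes the 3 mixture libraries lay above the 3 octanal libraries, which held for 752 of all genes tested (3.84%) and for 115 of the receptor genes (12.7%). The mixture libraries lay below the octanal libraries in 716 of all genes (3.66%) and 25 of the receptor genes (2.77%).

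Several of the raised genes were close relatives in sequence. Their coding sequences, taken as the longest open reading frame of the GENCODE M21 transcripts (GRCm38), were 921 to 948 bases long. Linking genes with at least 75% identity gave a set of 5 (Olfr1214, Olfr1215, Olfr1224-ps1, Olfr1225 and Olfr1226, 80.3% to 89.3% identical to each other), a set of 3 (Olfr1238, Olfr1240 and Olfr1246, 78.9% to 82.0%), the pair Olfr1274-ps and Gm13769 (98.4%), and 4 genes with no such partner (Olfr281, Olfr342, Olfr357 and Olfr467). Over the 78 pairs of the 13 Olfr genes the median identity was 65.0%. To show this likeness, the same stretch of 60 coding bases is printed for the set of 5, for the pair and for Olfr281, the least alike of the 14 in this stretch. The stretch begins with the codons of the motif that odorant receptors share at the inner end of the third membrane-spanning helix, on the coding strand, and capitals mark the bases that differ from Olfr1215.
Olfr1215: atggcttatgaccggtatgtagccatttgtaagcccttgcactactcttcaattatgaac
Olfr1214: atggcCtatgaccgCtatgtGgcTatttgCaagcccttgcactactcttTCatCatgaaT
Olfr1224-ps1: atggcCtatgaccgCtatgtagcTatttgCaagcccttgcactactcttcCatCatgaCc
Olfr1225: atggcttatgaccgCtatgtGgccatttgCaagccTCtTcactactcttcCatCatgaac
Olfr1226: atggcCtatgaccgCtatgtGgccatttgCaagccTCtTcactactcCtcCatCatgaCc
Olfr1274-ps: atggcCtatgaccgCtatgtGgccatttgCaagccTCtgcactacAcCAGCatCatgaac
Gm13769: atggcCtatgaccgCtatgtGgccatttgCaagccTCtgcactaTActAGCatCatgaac
Olfr281: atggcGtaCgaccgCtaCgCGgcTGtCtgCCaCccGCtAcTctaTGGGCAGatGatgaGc
Within this stretch the other members of the set of 5 differed from Olfr1215 at 7 to 11 bases, Olfr1274-ps and Gm13769 at 12 each, and Olfr281 at 25. The set of 5, the set of 3 and the pair lie on chromosome 2.

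The set of 5 rose in every mixture mouse. Olfr1215 had 0.751, 0.768 and 0.811 CPM in the 3 octanal libraries and 17.9, 16.02 and 11.3 CPM in the 3 mixture libraries. The groups did not overlap, and the log2 difference was 4.27 (SE 0.31, edgeR adjusted p = 2.96e-06), the largest of the 14. Olfr1226 had 12.8, 11.3 and 14.5 CPM with octanal and 96.8, 62.7 and 72.4 CPM with the mixture. Its log2 difference was 2.58 (SE 0.24, edgeR adjusted p = 4.51e-05). Each mixture library held several times the level of any octanal library. Olfr1224-ps1, annotated as protein coding despite its pseudogene-style name, rose from 6.41, 8.56 and 8.16 CPM to 37.3, 33.0 and 41.0 CPM. Olfr1225 rose from 0.651, 0.827 and 1.35 CPM to 4.58, 7.82 and 5.46 CPM, and Olfr1214 from 1.00, 2.01 and 1.46 CPM to 7.11, 7.34 and 5.92 CPM. These 3 log2 differences were 2.27, 2.65 and 2.19, with adjusted p of 4.37e-05, 0.00166 and 0.00185 in edgeR. Octanal alone was not called different from no odor for any of the 5, with log2 differences between -0.11 and 0.26.

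Olfr1274-ps had the smallest p of all genes. It had 3.35, 1.95 and 4.97 CPM with octanal and 65.3, 46.4 and 57.2 CPM with the mixture, a 16.3-fold rise (log2 4.03, SE 0.25, edgeR adjusted p = 6.45e-07). With no odor it had 6.20, 5.196 and 6.43 CPM, and octanal alone was called lower than that (log2 -0.79, edgeR adjusted p = 0.028), with the 3 octanal libraries below the 3 no-odor libraries. Its near-copy Gm13769 went from 3.65, 3.37 and 4.38 CPM to 24.5, 37.1 and 27.4 CPM (log2 2.96, edgeR adjusted p = 0.000795). Reads of these 2 genes could be split between them by the authors' counting, and Gm13769 also shares 2340 bases at 100% with Olfr1506. Olfr1506 had 0.501, 0 and 0 CPM with octanal and 4.58, 8.34 and 3.90 CPM with the mixture. Its groups did not overlap, but it did not pass the test (log2 4.93, edgeR adjusted p = 0.998). Without the filter on low counts Olfr1506 was called (log2 4.93, edgeR adjusted p = 3.50e-23). The division of reads among the 3 is uncertain.

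In the set of 3, octanal alone had already raised some members. Olfr1240 had 41.3, 19.0 and 12.1 CPM with octanal and 125, 103 and 124 CPM with the mixture. The octanal libraries were spread widely, yet the highest of them was below every mixture library (log2 2.28, SE 0.31, edgeR adjusted p = 0.00365). Without odor it had 3.32, 5.26 and 3.94 CPM, so octanal alone had raised it (log2 2.54, edgeR adjusted p = 7.7e-05). Olfr1238 had 5.61, 4.02 and 2.43 CPM with octanal and 15.8, 12.3 and 13.02 CPM with the mixture, and octanal alone had also raised it (log2 0.98, edgeR adjusted p = 0.029). Olfr1246 went from 1.55, 1.65 and 1.78 CPM to 10.3, 5.37 and 5.67 CPM, with no call for octanal against no odor. A stretch of 201 bases of the Olfr1238 transcripts is at least 95% identical to stretches in 19 other receptor genes, so part of its count is uncertain.

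The 4 genes without a close partner rose as well. Olfr467, on chromosome 7, had 0.400, 0.827 and 0.486 CPM with octanal and 13.6, 9.59 and 7.89 CPM with the mixture (18.2-fold, log2 4.18, edgeR adjusted p = 0.00076). It is 96.4% identical over 917 bases to Olfr471, so its count is uncertain too. Olfr281, on chromosome 15, rose from 5.56, 4.96 and 10.2 CPM to 30.7, 29.3 and 31.2 CPM (log2 2.14, edgeR adjusted p = 0.00166). Without odor Olfr281 had 13.6, 11.04 and 11.9 CPM, and octanal alone was called lower than that (log2 -0.82, edgeR adjusted p = 0.031), so that the mixture stood log2 1.32 above no odor. The mixture libraries of Olfr281 lay close together and above all octanal libraries. Olfr342 rose from 3.70, 2.95 and 1.95 CPM to 13.3, 9.88 and 12.8 CPM, and Olfr357 from 2.40, 2.24 and 1.41 CPM to 6.77, 7.43 and 9.20 CPM. Both are on chromosome 2, with log2 differences of 2.06 and 1.95 and edgeR adjusted p of 0.0123 and 0.0491. Olfr342 was also higher with octanal than with no odor (log2 1.41, edgeR adjusted p = 0.0082), as were Olfr1240 and Olfr1238, and octanal alone raised none of the other 11.

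**Figure D1:**
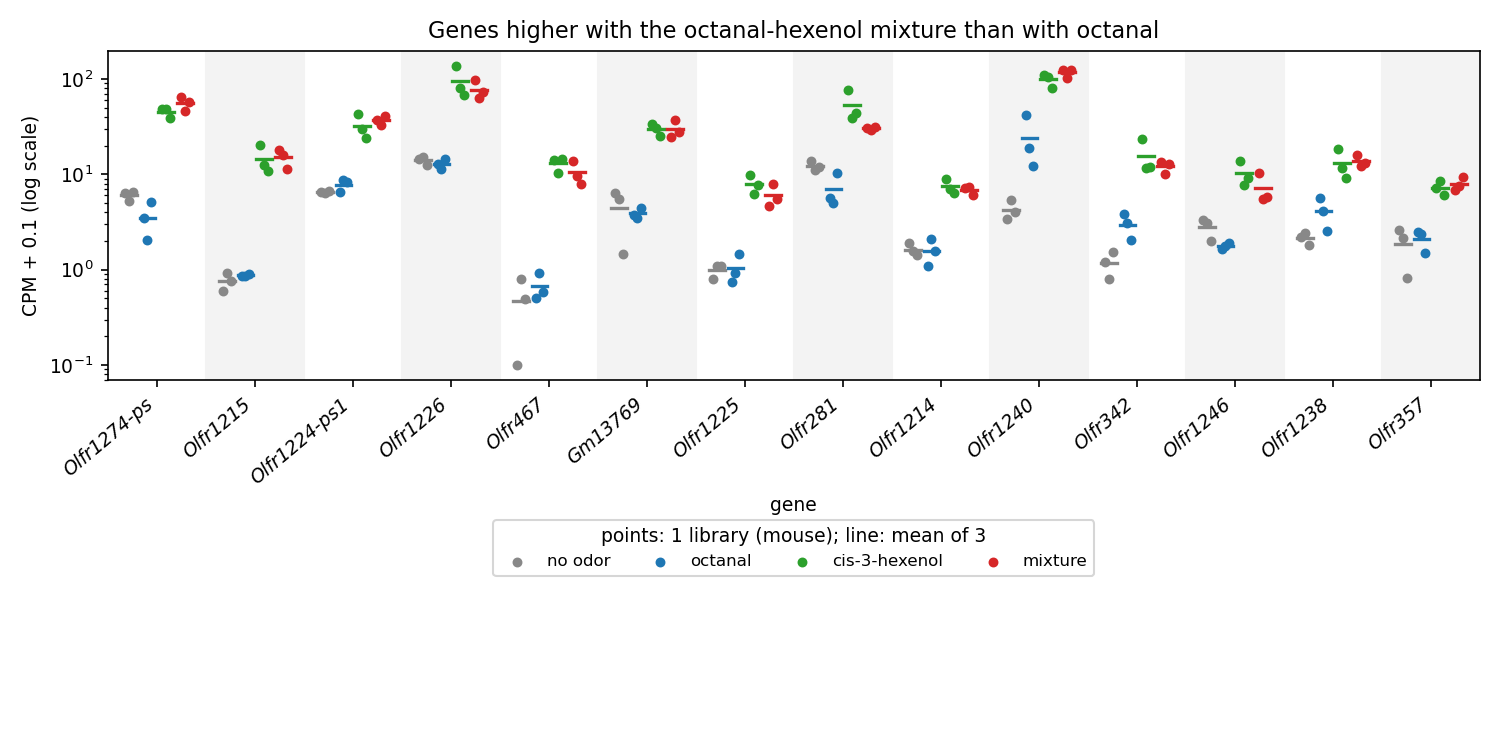
Levels of the 14 genes called higher with the mixture, as CPM plus 0.1 on a log scale, in each of the 12 libraries of the OC condition (points) with the mean of the 3 mice of a group (line). In every gene the mixture libraries (red) lie above the octanal libraries (blue), and they overlap the cis-3-hexenol libraries (green) except in Olfr281, where they lie below them.

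The weakest of these calls depended on single libraries. Olfr357 lost its call when any 1 of the 6 libraries was left out (6 of 6), Olfr1238 in 5 of 6, Olfr1246 in 4 of 6 and Olfr342 in 3 of 6, with adjusted p up to 0.252, 0.186, 0.0768 and 0.0889 in edgeR. Olfr342 was lost without mixture replicate 1, octanal replicate 2 or octanal replicate 3, Olfr1246 without mixture replicate 1 or any octanal replicate, and Olfr1238 without any library other than octanal replicate 1. All 14 genes kept their direction in all 13 alternatives, and 9 of them kept their call in all 13.

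The levels reached with the mixture were near those reached with cis-3-hexenol alone. For the 14 genes the mixture mean was 57.4% to 125% of the cis-3-hexenol mean, with a median of 95.9%, and it was higher in 6 genes and lower in 8. Only Olfr281 was called different between these groups, where 2523 of all genes (12.9%) were called. It had 76.5, 38.8 and 43.6 CPM with cis-3-hexenol alone (mixture minus cis-3-hexenol log2 -0.80, edgeR adjusted p = 0.047), and the lowest cis-3-hexenol library was above the highest mixture library. Octanal alone gave 4.42% to 31.0% of the cis-3-hexenol level in the 14 genes. The comparison with cis-3-hexenol uses the same mixture libraries, and the rises over octanal and these percentages are therefore not separate evidence.

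All 14 genes were also called higher with cis-3-hexenol than with no odor. None of the 6 libraries is on either side of that comparison. It comes from the same fit, however, and shares its filter, scaling and estimate of the spread. The calls of both comparisons are therefore not fully separate evidence. In the comparison of cis-3-hexenol with no odor, 2.58% of all genes and 8.09% of the receptor genes were called higher. That comparison named 73 receptor genes raised by cis-3-hexenol. The 13 called Olfr genes are 17.8% of those 73, and 100% of the 13 were among them. Of the 829 receptor genes that cis-3-hexenol did not raise, edgeR with the filter on low counts called 0 between mixture and octanal. DESeq2 called Olfr1269 (log2 2.88) and Olfr195 (log2 -1.41), and edgeR without the filter called these and others, such as Olfr1118 (log2 -1.76). With the filter, 50 of the 829 were higher and 37 lower at an unadjusted p under 0.05. The median log2 difference, mixture minus octanal, was 0.49 for the 73 and 0.21 for the 829, beside -0.01 for all genes. It was above 0 in 52 of the 73. Across the 902 receptor genes the change made by cis-3-hexenol on its own and the change it made on top of octanal correlated at a Pearson r of 0.355 (Spearman 0.220), and across the 73 at 0.509 (Spearman 0.419). These are descriptions across genes, which are not independent replicates and share library depth within each group.

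**Figure D2:**
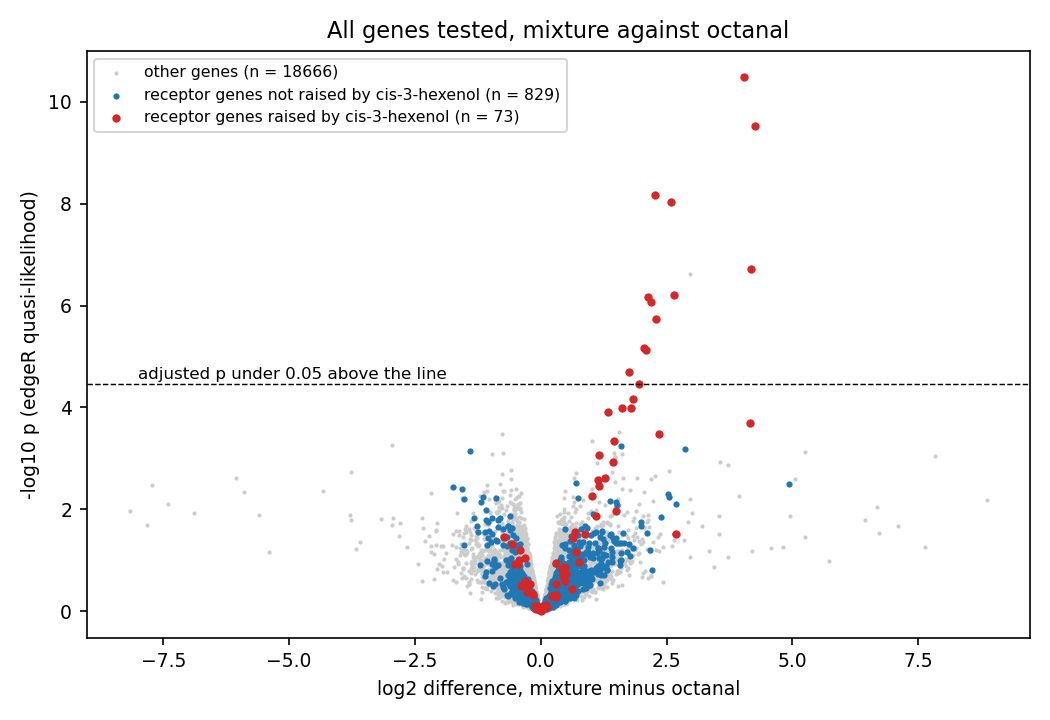
Log2 difference between mixture and octanal against -log10 of the unadjusted p for the 19568 genes tested. Above the dashed line lie 14 genes, all on the right: 13 receptor genes raised by cis-3-hexenol alone (red) and Gm13769, drawn in grey with the genes that have no Olfr symbol.

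The receptor genes just short of the threshold resembled the called ones. Among the next 12 genes by p, 8 were receptor genes and 7 of these were raised by cis-3-hexenol. Olfr175-ps1, on chromosome 16, had 14.97, 9.21 and 7.40 CPM with octanal and 59.0, 26.0 and 27.5 CPM with the mixture, without overlap (log2 1.83, edgeR adjusted p = 0.0896). Olfr525 followed with 1.80, 1.00 and 2.81 CPM against 5.36, 8.34 and 5.79 CPM, and Olfr464 with 3.40, 2.78 and 5.19 CPM against 11.2, 11.9 and 11.8 CPM. Their log2 differences were 1.79 and 1.61, each with an edgeR adjusted p of 0.12. Olfr745 spread more, at 2.15, 3.90 and 3.51 CPM against 24.7, 18.6 and 5.75 CPM, and was called without mixture replicate 3 (log2 2.77, edgeR adjusted p = 0.0238). In the receptor family 82 genes were higher and 39 lower at an unadjusted p under 0.05, which is 9.09% and 4.32% of the 902.

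Not every receptor raised by cis-3-hexenol gained from it when octanal was present. Of the 10 with the smallest p against no odor, 6 were called higher in the mixture than in octanal, and 4 were not: Olfr398, Olfr124, Olfr476 and Olfr1243. Octanal alone had raised each of these 4, by log2 3.02 to 4.48. Olfr398 had 5.06, 6.02 and 3.41 CPM with no odor, 51.5, 39.1 and 35.3 CPM with octanal, 42.2, 36.4 and 29.5 CPM with cis-3-hexenol, and 37.4, 44.6 and 48.7 CPM with the mixture. All 3 odor groups overlapped and stood above no odor, and the log2 difference between mixture and octanal was 0.05, with a 95% interval of -0.36 to 0.47. Olfr124 had 96.7, 94.97 and 151 CPM with octanal and 113, 89.2 and 134 CPM with the mixture, a log2 difference of -0.03 (-0.45 to 0.39). Olfr1243 had 94.0, 55.7 and 37.5 CPM with octanal and 58.0, 56.8 and 85.9 CPM with the mixture, a log2 difference of 0.10 (-0.56 to 0.76). Olfr476 had 16.5, 18.8 and 14.2 CPM against 15.6, 11.7 and 14.6 CPM, a log2 difference of -0.24 (-0.73 to 0.25). The 95% intervals of these 4 receptors, which both odors raised, lay within -1 and 1. In a test of whether the change made by cis-3-hexenol differed with and without octanal, 17 of all genes (0.0869%) passed, among them these 4 and 7 of the 73 in all. The 73 and these 4 were picked for a high level with cis-3-hexenol over no odor. The test subtracts that same change, so the choice favors a smaller change on top of octanal.

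Of the 73 receptors raised by cis-3-hexenol, 42 were raised by octanal as well, which raised 195 receptor genes (21.6%) and 17.9% of all genes, and 31 were not. Among the 42 the median log2 difference between mixture and octanal was 0.09, with 3 called higher (Olfr1240, Olfr342 and Olfr1238). Among the 31 it was 1.502, with 10 called higher and 28 above 0. This division uses the octanal libraries, which also enter the difference, so a gene that was high by chance with octanal falls among the 42 and has a smaller difference. The 2 values are a description, with no test.

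**Figure D3:**
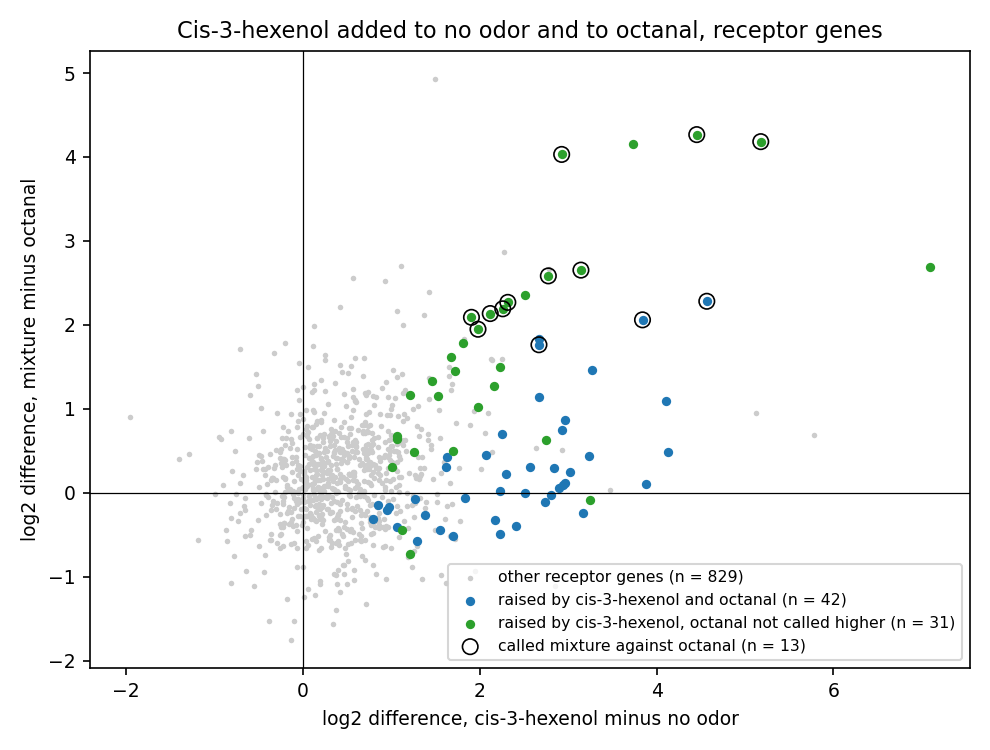
Each point is 1 of the 902 receptor genes, with its log2 difference between cis-3-hexenol and no odor (horizontal) and between mixture and octanal (vertical). Of the 13 called genes (ringed), 10 are among the receptors that octanal did not raise (green). The 42 receptors raised by both odors (blue) have a median of 0.09 on the vertical axis.

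None of the leading receptors of octanal was called different in the mixture by edgeR. The 10 receptor genes with the smallest p for octanal against no odor had log2 differences between mixture and octanal of -0.31 to 0.49, with a median of -0.03, and none was called. For all 10 the 95% interval lay within -1 and 1, so a change of 2-fold in either direction was outside it. Olfr332 had 169, 129 and 178 CPM with octanal and 159, 165 and 148 CPM with the mixture, a log2 difference of -0.01 (-0.34 to 0.31). Olfr370 had 160, 97.9 and 133 CPM against 129, 121 and 152 CPM, and Olfr1368 had 52.6, 55.9 and 52.0 CPM against 53.2, 44.5 and 58.1 CPM. In these 3 the groups overlapped. The lowest and highest differences were those of Olfr287, at 36.9, 49.6 and 41.5 CPM against 33.5, 34.6 and 35.1 CPM, and Olfr1383, at 57.01, 38.2 and 76.9 CPM against 74.9, 76.8 and 90.3 CPM. Over the 10 genes the mixture mean was 80.6% to 141% of the octanal mean. The libraries did not overlap in Olfr287, where the mixture was lower, and in Olfr479, where it was higher (44.2 to 58.3 CPM against 66.3 to 76.2 CPM). The 10 were picked on the octanal libraries, so their values are a description, with no test.

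Olfr2, known as the I7 receptor and the classic receptor for octanal, had 18.9, 42.6 and 28.4 CPM with octanal and 25.7, 25.8 and 21.3 CPM with the mixture. The mixture libraries lay within the range of the octanal libraries. The log2 difference was -0.30 (-0.98 to 0.37, edgeR adjusted p = 0.998). Without odor it had 6.99, 2.78 and 2.76 CPM, and with cis-3-hexenol 1.98, 1.89 and 3.41 CPM.

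**Figure D4:**
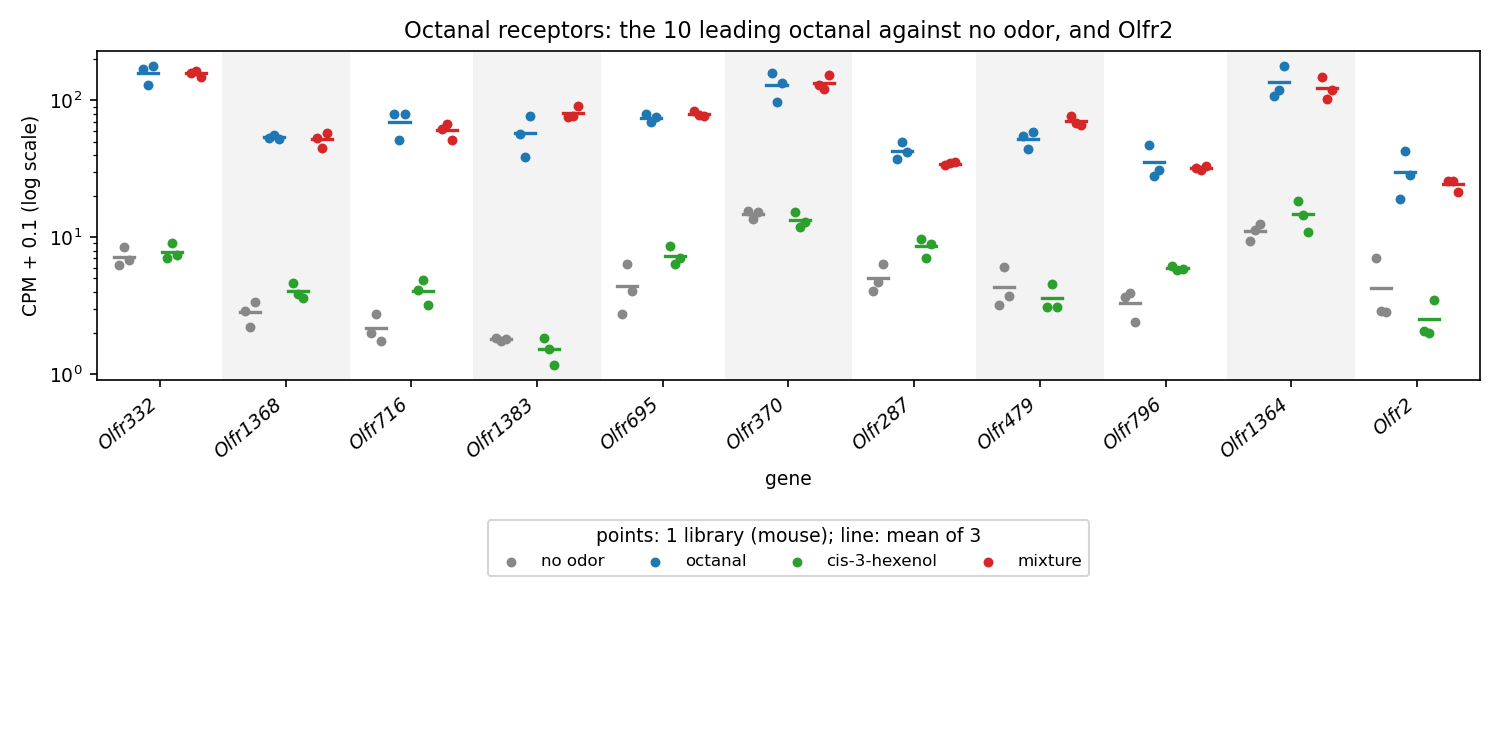
Levels of the 10 receptor genes leading octanal against no odor, and of Olfr2, as CPM plus 0.1 on a log scale, in each library (points) with the group mean (line). Octanal (blue) and mixture (red) overlap in 8 of the 10 genes and in Olfr2, and cis-3-hexenol (green) lies far below both.

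A second list of aldehyde receptors was drawn without any library of the comparison. Decanal, a longer straight-chain aldehyde, was tested in another set of the series (the AD condition) against its own no-odor mice. It raised 71 receptor genes (7.79% of those tested there, beside 10.8% of all genes), of which 69 were tested here. Between mixture and octanal 0 of the 69 were called in either direction, and their median log2 difference was -0.16, against 0.22 for all receptor genes. The difference was below 0 in 46 of them, with 11 lower and 3 higher at an unadjusted p under 0.05. For 41 of the 69 the 95% interval excluded a fall of 2-fold or more, and for the others the precision did not allow that statement. For the 50 that octanal had raised as well, the median was -0.24, with 39 below 0. The wider list of 195 receptors raised by octanal had a median of -0.21, with 130 below 0, 29 lower and 11 higher at an unadjusted p under 0.05. Its median mixture level was 86.6% of the octanal level. The 95% interval excluded a fall of 2-fold or more in 119 of the 195, and lay within -1 and 1 in 78. This list shares its octanal libraries with the difference.

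**Figure D5:**
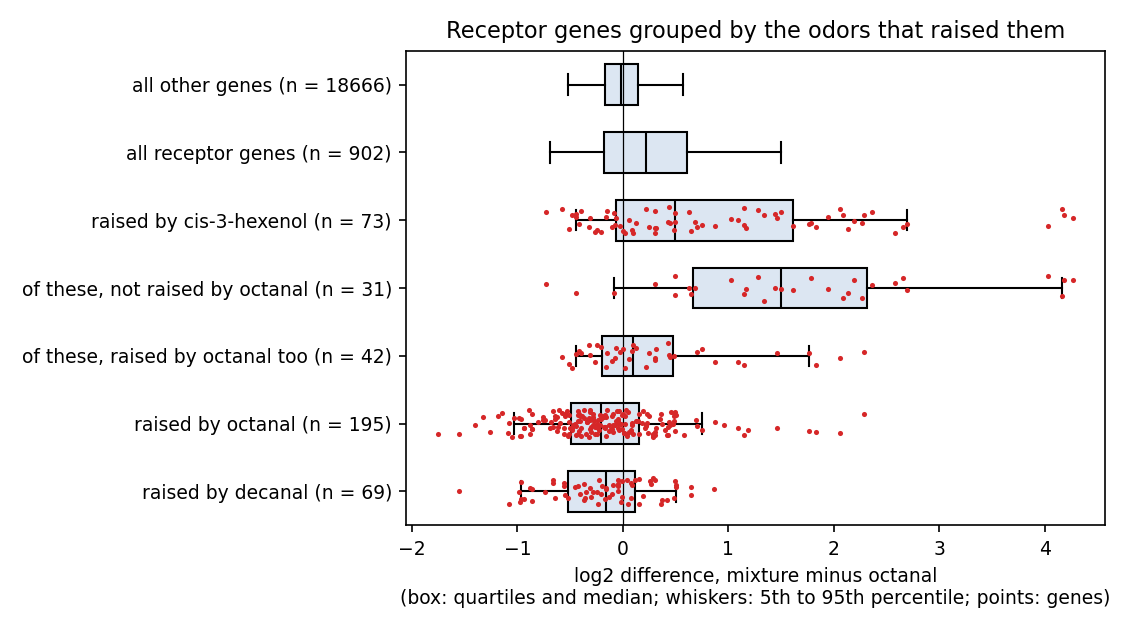
Log2 difference between mixture and octanal for gene lists, with quartile boxes, whiskers from the 5th to the 95th percentile, and single genes as points for lists under 200. The receptors raised by cis-3-hexenol but not by octanal lie mostly to the right (median 1.502), and those raised by octanal or decanal lie slightly to the left (medians -0.21 and -0.16).

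The size of the small differences depends on the scaling. All receptor genes together had a median of 0.22, and 577 of 902 were above 0. When the libraries were scaled to the median receptor gene instead, the median of all genes moved to -0.30, that of receptor genes to -0.06, that of the 73 receptors raised by cis-3-hexenol to 0.21 and that of the decanal list to -0.47.

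With all libraries and the filter on low counts, edgeR called 0 receptor genes lower (DESeq2 called Olfr195). The 5 receptor genes with the smallest p for a lower level in the mixture were Olfr195, Olfr1118, Olfr1418, Olfr1423 and Olfr1112, and octanal alone had raised all 5. Without that filter edgeR called all 5 lower. The edgeR adjusted p was then 2.29e-06, 2.77e-06, 0.0123, 0.0022 and 0.00896, in that order. Olfr195 had 26.3, 17.1 and 9.73 CPM with octanal and 6.82, 5.37 and 7.97 CPM with the mixture, while no odor gave 6.15, 7.85 and 4.79 CPM. The groups did not overlap, and the mixture level was that of mice without odor (log2 -1.40, edgeR adjusted p = 0.488; DESeq2 called it, at 0.0248). Olfr1423 had 25.4, 11.3 and 8.00 CPM with octanal and 7.65, 5.80 and 6.70 CPM with the mixture (log2 -1.15, edgeR adjusted p = 0.998). In all 5 genes octanal replicate 1 was the highest octanal library. Without it the log2 differences were -0.97 for Olfr195, -0.80 for Olfr1118, -0.98 for Olfr1418, -0.50 for Olfr1423 and -0.45 for Olfr1112, and none was called. Of the 39 receptor genes lower at an unadjusted p under 0.05, 29 were ones that octanal had raised, beside 21.6% of all receptor genes. Both counts use the same octanal libraries, so this share is a description, with no test. In simulated data of the same depth the test recovered 15.2% of receptor genes lowered 2-fold, 50.0% of those lowered 4-fold and 60.6% of those lowered 8-fold.

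The called genes were concentrated on chromosome 2, which carries 12 of the 14. It holds 238 of the 902 receptor genes tested and 33 of the 73 raised by cis-3-hexenol. In the numbered stretch from Olfr1214 to Olfr1274-ps, 9 of the 52 tested receptor genes (17.3%) were called higher, against 4 of the 850 elsewhere. In that stretch 44 of 52 had a difference above 0 and the median was 0.49, against 0.21 elsewhere. The stretch was bounded by its own called members, so these shares describe it and are no test.

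Outside the receptor family few genes were called while the filter on low counts was kept. Of 18666 other genes edgeR called only Gm13769 (0.00536%), and DESeq2 also called Slc43a3 (log2 1.01) and the unnamed gene ENSMUSG00000118506 (log2 -0.79). In edgeR 0 members were called in any of 23 lists of pathways and cell types, whose counts can be read beside the 0.0715% of all genes. The total share of counts on receptor genes was 0.624% ± 0.120 (SD, n = 3) with octanal and 0.666% ± 0.0333 (SD, n = 3) with the mixture, against 0.253% ± 0.0233 (SD, n = 3) with no odor and 0.471% ± 0.0309 (SD, n = 3) with cis-3-hexenol. The difference of 0.042 percentage points was within the spread of the octanal mice (exact permutation test, 2-sided, p = 0.8; the smallest p that 3 against 3 allows is 0.1).

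Genes of the firing neuron gave no call while the filter on low counts was kept. The olfactory transduction cascade, which turns receptor binding into a current through the cyclic nucleotide-gated channel, had 0 of 13 called and a median log2 difference of 0.08. Its channel subunit Cnga2 had 862, 422 and 589 CPM with octanal and 778, 735 and 741 CPM with the mixture. Of 24 immediate early genes, which neurons switch on after activity, 0 were called, the median was -0.17 and 5 were lower at an unadjusted p under 0.05. Nr4a2, an orphan nuclear receptor of this class, had 133, 85.5 and 41.3 CPM with octanal and 52.3, 46.5 and 30.7 CPM with the mixture, and the groups overlapped (log2 -1.01, edgeR adjusted p = 0.998). Without that filter Nr4a2 was called lower (edgeR adjusted p = 1.86e-06). Fos had 94.4, 85.8 and 97.5 CPM against 94.7, 87.1 and 84.3 CPM (log2 -0.06). Among 20 activity genes of sensory neurons 0 were called and the median was -0.11. S100a5, a calcium-binding protein that follows the activity of sensory neurons, had 4397, 6845 and 3487 CPM with octanal and 3317, 3533 and 2818 CPM with the mixture, with overlap (log2 -0.61, edgeR adjusted p = 0.998).

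The mitochondrially encoded genes had the largest median of these 23 lists, and none of them passed the test with all libraries and the filter on low counts. All 13 had a higher mean with the mixture, with a median log2 difference of 1.43, 11 were higher at an unadjusted p under 0.05, and in 5 the libraries did not overlap. Mt-Co1, a subunit of cytochrome c oxidase, had 259, 339 and 461 CPM with octanal and 1031, 1589 and 479 CPM with the mixture (log2 1.55, edgeR adjusted p = 0.294). It was called when mixture replicate 3, the lowest of its group, was left out (log2 1.89, edgeR adjusted p = 0.00969). Without the filter on low counts Mt-Co1 was called too (log2 1.56, edgeR adjusted p = 2.33e-12). So were others of this list, such as mt-Nd5 and mt-Co3. Mitochondrial transcripts made up 0.0628%, 0.0896% and 0.1254% of the counts with octanal, 0.230%, 0.425% and 0.130% with the mixture, and 0.591% to 0.634% with no odor. Cis-3-hexenol alone had the highest shares, 0.788%, 1.39% and 2.27%, and the median log2 difference of the 13 genes between cis-3-hexenol and no odor was 1.22, with 4 called higher in edgeR. The mixture libraries thus lay above the octanal libraries and below those of both other groups. The part of RNA quality in these differences was not tested. The nuclear genes of oxidative phosphorylation had a median of -0.16, with 77 of 81 below 0 and 0 called.

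Secretions of Bowman glands, which line the olfactory mucosa with mucus, varied widely from mouse to mouse. Bpifb9b, a secreted lipid-binding protein, had 417, 892 and 630 CPM with octanal and 11.5, 18.7 and 243 CPM with the mixture. The groups did not overlap, yet the 3 mixture mice differed among themselves by more than 10-fold (log2 -2.82, edgeR adjusted p = 0.998). Bpifb9a and Bpifb5 had log2 differences of -2.80 and -2.93 and were not called while the filter on low counts was kept. Without it Bpifb9b, Bpifb9a and Bpifb5 were called lower (edgeR adjusted p 2.27e-44, 2.52e-51 and 3.65e-14). Of the 17 genes of odorant-binding and gland secretions tested, 0 were called, and the median log2 difference was -0.36. The difference was above 0 in 5 of them and below 0 in 12, with 2 higher and 5 lower at an unadjusted p under 0.05. The summed Bowman gland markers (Sox9, Sox10, Muc5b and Bpifb9b) were 606 to 1077 CPM with octanal and 159 to 439 CPM with the mixture, against 349 to 1428 CPM with no odor. This sum contains Bpifb9b, while Sox9, Sox10 and Muc5b each overlapped between octanal and mixture. Muc5b had 112, 123 and 88.0 CPM with octanal and 91.4, 161 and 96.3 CPM with the mixture. The part of gland material in other differences was not tested. Red blood cell genes (19 tested), bone genes (20 tested) and neutrophil genes (17 tested) had 0 called, with medians of 0.16, -0.21 and 0.41.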

How the data were processed

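The libraries were pS6 immunoprecipitates of olfactory epithelium, made with a stranded mRNA kit per the labels. The authors quantified the reads and deposited estimated counts per gene, which need not be whole. Per the submitters' processing notes, the genome was GRCm39 and the tools were Salmon 1.10.1 and STAR 2.7.10b, beside R 4.4.2. Which of them made the counts is not given in the sources used here. Counts were rounded to whole numbers. The 12 libraries of the OC condition were fitted together with 4 groups in edgeR 4.0.16 (R 4.3.3; filterByExpr with a minimum count of 10 and a minimum total of 15; TMM scaling; quasi-likelihood test, 2-sided; Benjamini-Hochberg over 19568 genes). Decanal was fitted in its own set and used only for a gene list. Intervals are 95%, from the same fit, and include the spread between mice. A count of 3 equals 0.123 to 0.177 CPM, a floor that covers counting error only. Gene names came from GENCODE M21 (52029 of 57010 identifiers matched) and sequences from its transcripts, compared with blastn 2.17.0, at 95% identity over 200 bases or more for near-copies. As that annotation is of GRCm38, no coordinates are given. The labels call the 3 mice of a group biological replicates.

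Named genes were chosen by rule: up to 10 receptor genes each way and 8 other genes each way with the smallest p among called genes with separate libraries, predicted genes and pseudogenes left out by their annotation, or 5 as values where fewer than 5 were called; the 10 leading receptor genes for cis-3-hexenol, octanal and decanal; Olfr2; and up to 4 members of each list. Gm13769, Olfr1506, Olfr1238, Olfr1246, Olfr357 and the genes just short of the threshold were named after their values were seen, as was the 75% identity limit. The comparison and the lists were chosen with earlier results of these data known. The script was tested on 2 simulated sets. With changes among receptor genes it called 8 unchanged genes among 19237, beside 5 to 29 of the 33 or 34 genes changed at each fold and direction. With changes among all genes it called 9 unchanged genes among 19220. Alternatives were DESeq2 1.42.0, other scalings, no filter, only the 6 libraries, a replicate block and each library left out.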

Additional observations from a re-analysis of the deposited data

Results flagged for a closer look

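For 7 of the named genes the change made by cis-3-hexenol on top of octanal differed from the change it made on its own, by a test of that difference in the same fit (17 of all genes tested, 0.0869%, at an adjusted p under 0.05 in edgeR). The difference of the log2 changes was -2.84 for Olfr398 (edgeR adjusted p = 0.000379), -2.84 for Olfr124 (0.000379), -3.40 for Olfr476 (0.000622) and -3.78 for Olfr1243 (0.00318). In these 4 receptors cis-3-hexenol alone gave a rise of log2 2.81 to 3.88 over no odor, and octanal alone reached a higher mean than cis-3-hexenol. The difference was 2.65 for Rhd, a blood group protein of red cells, 1.34 for Tent5c and 1.92 for Slc43a3 (adjusted p 0.00309, 0.00326 and 0.0244 in edgeR). These 3 were lower with cis-3-hexenol than with no odor, by log2 -2.02, -1.18 and -0.91. Octanal alone gave still lower means: 4.85 CPM against 10.8 CPM with cis-3-hexenol for Rhd, 28.6 against 42.1 for Tent5c, and 2.69 against 6.19 for Slc43a3. Their log2 differences between mixture and octanal were 0.63, 0.16 and 1.01, with none called in edgeR (DESeq2 called Slc43a3, adjusted p = 0.0449). Among the 73 receptors raised by cis-3-hexenol, 7 passed this test, all 7 with a smaller change on top of octanal. The 73, and the 4 receptors above among them, were picked for the change that this test subtracts, so the choice favors that direction. Of the 13 called receptor genes 0 passed it.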

How the results depend on the processing

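All 14 genes kept their direction under all 13 alternatives. The median of all receptor genes, 0.22, became -0.06 when scaled to the median receptor gene. DESeq2 called 23 genes, 2 of them lower, and 20 receptor genes, 1 of them lower. Without a filter on low counts there were 160 called genes (71 lower) and 44 receptor genes (14 lower), with 27 of the receptors raised by cis-3-hexenol, 5 lower members of the decanal list and 20 members of the fixed lists; all 14 genes stayed among them. Scaling to the median receptor gene left 10 genes. With only the 6 libraries, 11 genes were called, 1 of them lower. The labels do not say that the replicate numbers pair the mice. Deviations of same-numbered octanal and mixture libraries correlated at -0.050, 0.099 and 0.187, and 3 of 6 libraries correlated best with their own number. So few libraries cannot decide whether the numbers pair them. With the replicate block 16 genes were called, 1 lower (Amelx), and all 14 were kept. Leaving out 1 library gave 10 to 19 called genes (0 to 2 lower), 9 to 16 receptor genes (0 to 1 lower), 9 to 15 of the receptors raised by cis-3-hexenol, 0 to 0 of the decanal list, 0 to 1 of the fixed lists, and a difference in receptor share of -0.020 to 0.099 points (0.042 with all libraries, and negative without octanal replicate 2). Lower genes appeared without octanal replicate 1 (2) and without octanal replicate 3 (1, the receptor Olfr1093). Over the genes named by the rule, 5 values lost the call (Olfr342 in 4 alternatives and Olfr1240 in 1) and 23 were newly called. Outside the rule, Olfr357 lost its call in 10, Olfr1238 in 7 and Olfr1246 in 6 of the 13 alternatives. Small changes were often missed in simulated data of the same depth: 14.7% of receptor genes raised 2-fold were recovered, against 63.6% at 4-fold and 87.9% at 8-fold.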
